A study of Rattus norvegicus with 8 samples.

Results

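Cadherins and protocadherins are surface proteins that join cells in the presence of calcium, and 48 genes of this superfamily were measured in rat retinal ganglion cells sorted by size, large against small. Members were chosen by name, as every gene whose platform symbol is a numbered Cdh, a Pcdh, a Celsr, a Fat or a Dchs gene. They were 48 of 14802 named genes and 82 of 23374 probes with 1 gene symbol, and the Cdhr genes were not included. Ganglion cells, the output neurons of the retina, had been filled backwards from their axons with the fluorescent tracer 4DI-10ASP. They were sorted by flow cytometry into a fraction of large and a fraction of small cells, with actinomycin D present to block new transcription. RNA of both fractions was amplified in 2 rounds, coupled to a red or a green dye and set against each other on 2-colour Agilent arrays. The 8 arrays of the series, each of which holds both fractions, are called 39, 40, 41, 42, 43, 69, 70 and 71 after their titles. The sources used here do not give the strain, age or sex of the animals, or how many were pooled for a sort. The labels state that each biological replicate was measured as 2 technical subreplicates but not which arrays belong together. P-values over 8 arrays may therefore rest partly on technical spread.

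Cadherins bind mostly to their own kind on a facing cell. Classical cadherins hold on to the actin skeleton through catenins, and type II members differ between neurons that are wired together or kept apart. Clustered protocadherins are made from 3 neighbouring groups of genes (alpha, beta and gamma), from which each neuron draws its own small selection, and in mouse they let a neuron's branches avoid each other. Giant members of the Fat, Dachsous and Celsr families act in the polarity of cells and the growth of axon tracts. In the mouse retina, type II cadherins such as Cdh6, Cdh8, Cdh9 and Cdh10 help bipolar, amacrine and ganglion cells to find their partners in the synaptic layer.

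Many clustered protocadherin genes share a short element in front of their first exons, known for a CGCT core. It is shown because it was found in every promoter looked at in the largest subfamily. The core letters alone are common. On either strand, CGCT was found in 18 of 23 promoters of the other members and in 55.1% of all 33469 promoters. Of the 15 measured clustered members, 12 had an entry in the RefSeq promoter table of assembly GRCr8, all on chromosome 18 and on the plus strand. Pcdha2, Pcdhac2 and Pcdhgb7 had none, so whether they carry the element cannot be told here. Each line gives 30 bases from 5′ to 3′, with the core in capitals.
Pcdha4: tctggagccacatggtgtCGCTctttaccg
Pcdhb4: aataaggacgcttggtggCGCTgcaggcta
Pcdhb9: caaaaagacacagggtggCGCTgcaggcta
Pcdhb12: aataaggacgcttggtggCGCTgcaggcta
Pcdhb20: cacagagacacatggtggCGCTgtaggata
Pcdhga2: ggctaggcctctgagcgtCGCTgttgacca
Pcdhga5: ggttaggactctaagcgtCGCTgttcacca
Pcdhga7: agtaaggactctgcgtgcCGCTgttcacca
Pcdhga9: acttagggctctgagcgcCGCTgttcacca
Pcdhga11: agattgggctctaggcgcCGCTcttgacca
Pcdhgb8: taaatggactctgggcgcCGCTgttgtcca
Pcdhgc3: ggctgggactctgtgtgcCGCTgtcggcca
The window of Pcdhb12 lies at chr18:29413645-29413674, that of Pcdhga11 at chr18:29834471-29834500 and that of Pcdhga7 at chr18:29794202-29794231. The core began between 22 bases (Pcdhga5) and 193 bases (Pcdha4) before the annotated start. The motif GNGNCGCT, read off these windows, was found in 12 of the 12 promoters of clustered members on either strand. It was found in 9 of 23 promoters of the other members and in 10.8% of all 33469 promoters, each taken as the 250 bases before the start. From 10 bases before the core to 2 after it, the 7 gamma windows share the letters CTCTNNGNGNCGCTNT, which contain it and were found in 7 of the 12 promoters and in 0.0568% of all promoters. Over the same stretch the 4 beta windows share CNCNNGGTGGCGCTG, which also contains it and was found in 4 of the 12 and in 0.0598% of all. Letters shared farther out were not part of the search. The windows of Pcdhb4 and Pcdhb12 are identical over the 30 bases. Each motif was read off the windows it matches, so those matches were fixed in advance and are no support for an enrichment. A match is a description of the letters and was not tested for function.

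Before the members are described, the arrays themselves need an account, since the direction of the ratio is not settled. The labels give large cells in the red and small cells in the green channel on all 8 arrays, while the design text of the series mentions swapped dyes. Which channel was divided by which is not stated, nor whether any array was reversed before deposit. Over all probes, arrays 39, 41, 43 and 70 correlated positively among themselves, as did arrays 40, 42, 69 and 71, and the 12 pairs within these sets had Pearson correlations between 0.22 and 0.68. Of the 16 pairs across the sets, 15 correlated negatively, the lowest at -0.32. Arrays that label the same comparison and run against each other leave the sign of the ratio open. Main call counts are therefore given first with signs as deposited and then with the signs of arrays 40, 42, 69 and 71 turned. Means of cell type markers are given as deposited only. A turned mean above 0 thus means higher on arrays 39, 41, 43 and 70 and lower on the other 4. Since the sets were told apart on these same ratios, calls on turned values describe the arrays and are no independent support. If the deposited ratio runs from large to small cells on every array, the negative side means lower in large cells. This includes the case of arrays swapped and reversed before deposit. The turned mean, and calls on it, would then describe a difference between sets of arrays, which may hold effects of the dyes, and not cell size. If instead the arrays of one set were dye-swapped and not reversed, the turned mean would compare large with small cells. The mean as deposited, and calls on it, would then not describe cell size. Which of these holds cannot be told from the sources used here. Fewer cells of a type and less RNA per cell cannot be told apart in such samples.

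With signs as deposited, 4 of the 48 members passed the test over all genes (limma, Benjamini-Hochberg adjusted p under 0.05), or 8.33%, against 2.19% of the 14801 genes tested. Cdh13, Pcdhb12 and Cdh7 lay on the negative side, where 1.62% of all genes were called. Cdh9 lay on the positive side, where 0.568% were called. All 4 calls take the 8 arrays as separate samples. With arrays of neighbouring title number averaged (39 with 40, 41 with 42, 43 with 69, 70 with 71), a pairing the labels do not give, 0 of the 48 members and 0 of 14802 genes (0%) were called by limma, with 1928 genes at an unadjusted p under 0.05. Macrophage marker ratios were alike within these neighbours, at 0.99 and 0.82, -0.33 and -0.33, 0.16 and 0.18, and 0.19 and 0.25. The values on arrays 43, 69, 70 and 71 were all close, so they cannot tell which of these arrays belong together. Arrays 43 and 69 are neighbours only in the order of titles. The changes were modest, from -0.36 (Cdh7) to -0.64 (Cdh13) on the log2 scale among those on the negative side. All 48 members had a value on 8 of 8 arrays, so none fell to the filter on missing values. Of the 48 means 36 were negative, as were 7695 of the 14801 over all genes, with a median of -0.085 on the log2 scale against -0.0057 over all genes. The median size of a mean was 0.098 for members and 0.081 for all genes. With the signs of 4 arrays turned, 11 members passed (22.9%), against 28.1% of all genes, which is near the background. On the positive side there were 5, where 13.6% of all genes were called, and on the negative side 6, where 14.5% were. Turned and with neighbours averaged, 24 of the 48 passed, against 49.1% of all genes. With 8 arrays, no member was called both as deposited and turned. Without arrays 39 and 40, which stood apart in macrophage markers, with list means of 0.99 and 0.82 against -0.33 to 0.25 on the other 6, 3 members were called with signs as deposited, against 2.65% of all genes (392 of 14801). These were Cdh13 (-0.76, limma adjusted p = 0.0247), Fat3 (-0.53, adjusted p = 0.0125) and Pcdh7 (-0.53, adjusted p = 0.0461).

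**Figure D1:**
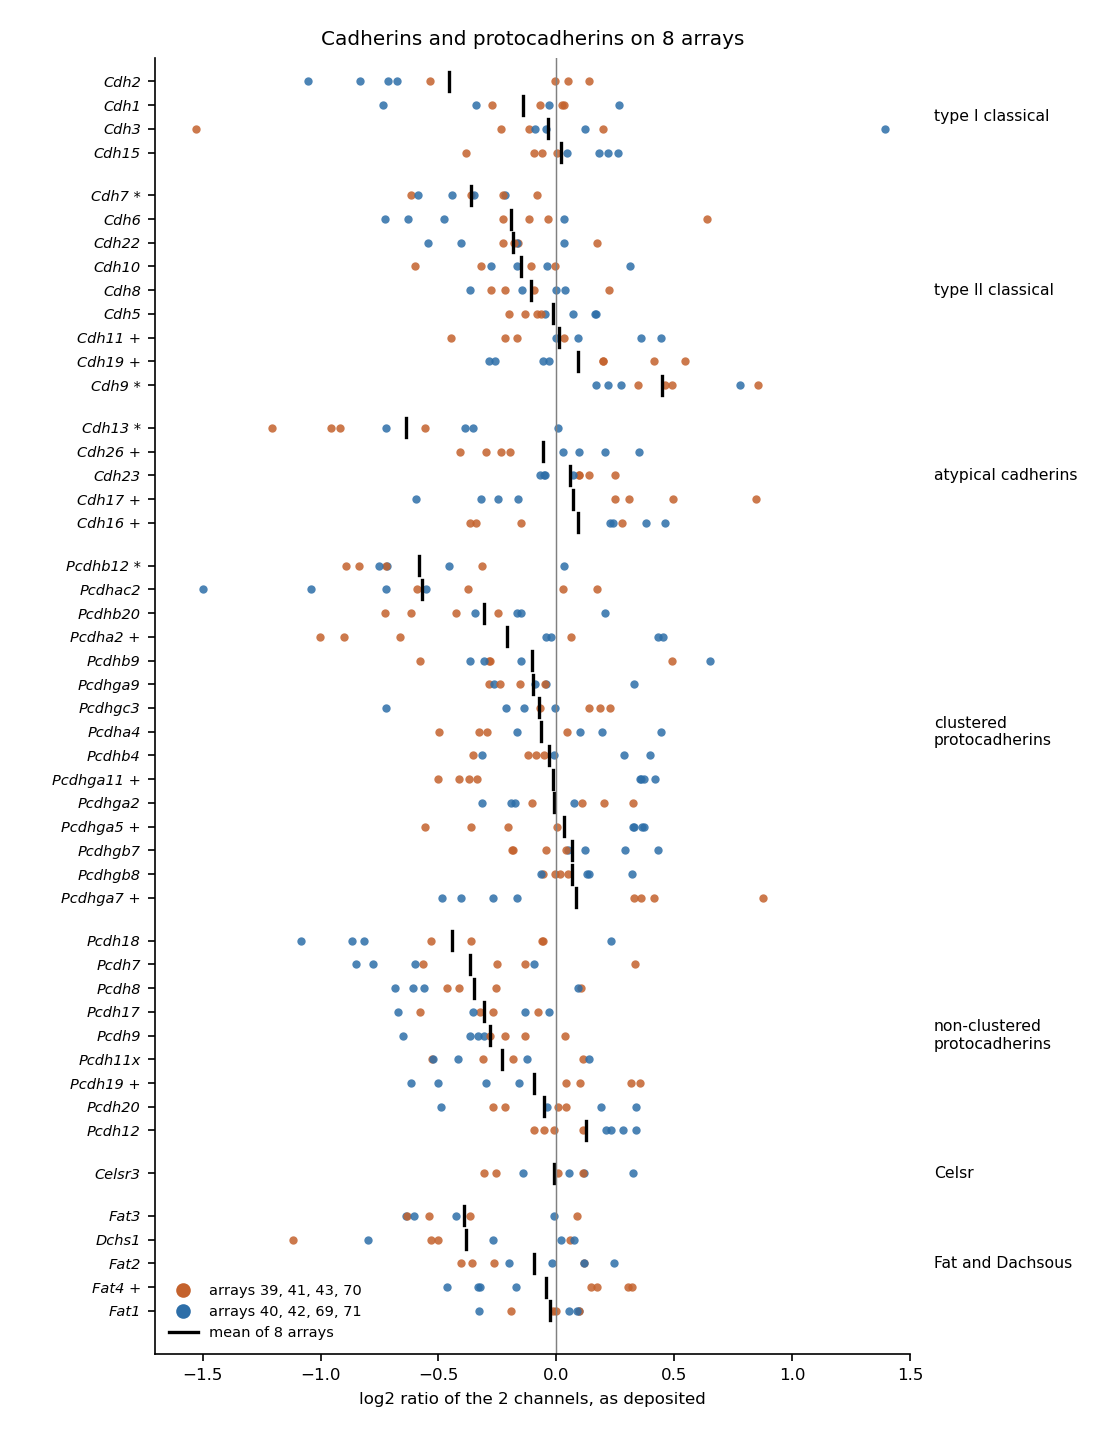
Log2 ratio of each of the 48 members on each of 8 arrays, signs as deposited, grouped by subfamily and ordered by mean. Orange points are arrays 39, 41, 43 and 70, blue points arrays 40, 42, 69 and 71, and black bars the mean of 8 arrays; a star marks the 4 members called with signs as deposited and a plus the 11 called with 4 arrays turned.

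Cdh13 had the lowest mean ratio of the superfamily. It encodes T-cadherin, which has no transmembrane part, is held in the membrane by a lipid anchor and also binds adiponectin. Its log2 ratio was -0.56, 0.0062, -0.92, -0.39, -0.96, -0.35, -1.20 and -0.72 on arrays 39, 40, 41, 42, 43, 69, 70 and 71, in which order the values of other genes follow below. It was negative on 7 of 8 arrays and close to 0 on array 40. The mean was -0.64 ± 0.39 (SD, n = 8 arrays) with a standard error of 0.13 (limma adjusted p = 0.0299). The 2 probes lay at -0.79 (limma adjusted p = 0.0137 among single probes) and -0.48 (adjusted p = 0.134), both on the negative side. The values were lower on arrays 39, 41, 43 and 70 (mean -0.91) than on the other 4 (-0.36), and these overlapped. The turned mean was -0.27 ± 0.73 (limma adjusted p = 0.393). The call with signs as deposited was kept without array 40 and lost without any other single array, with adjusted p from 0.0182 to 0.0878 over the 8 omissions. Over averaged neighbours it was lost as well (adjusted p = 0.101).

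Pcdhb12, a beta protocadherin, came next among called members. Its ratios were -0.84, -0.45, -0.31, 0.034, -0.89, -0.72, -0.72 and -0.75, so it was negative on 7 of 8 arrays and near 0 on array 42. The mean was -0.58 ± 0.32 with a standard error of 0.11 (limma adjusted p = 0.0201). The call rests on 1 probe, and the adjusted p ran from 0.0168 to 0.069 when single arrays were left out, staying under the threshold for 4 of 8. Over averaged neighbours it was 0.129. The turned mean was -0.11 ± 0.69 (adjusted p = 0.732). Its arrays of both sets overlapped, with means of -0.69 and -0.47.

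The type II classical cadherins held a called member on each side. Cdh7 had ratios of -0.62, -0.59, -0.083, -0.22, -0.36, -0.35, -0.23 and -0.44, negative on 8 of 8 arrays. Its mean was -0.36 ± 0.18, or 1.28-fold, with a standard error of 0.074 (limma adjusted p = 0.0345). The 2 probes had close means of -0.39 and -0.33, but neither passed alone (adjusted p = 0.0853 and 0.399). On array 41 they lay at -0.72 and 0.55, and their mean there was -0.083. Turned, Cdh7 lay at 0.038 ± 0.43 (adjusted p = 0.859), on the other side of 0 and within its spread. Its call was kept in 1 of the 8 fits without 1 array, that without array 41, and adjusted p ran from 0.0403 to 0.0989. Over averaged neighbours it was 0.166.

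Cdh9 was the only called member on the positive side. In mouse retina it marks a bipolar cell type and guides its axon. Its ratios were 0.46, 0.27, 0.86, 0.78, 0.34, 0.17, 0.49 and 0.22, positive on 8 of 8 arrays and highest on arrays 41 and 42. The mean was 0.45 ± 0.25, or 1.36-fold, with a standard error of 0.090 over 1 probe (limma adjusted p = 0.0319). The turned mean was 0.089 ± 0.53 (adjusted p = 0.723). The call was kept without array 40 or array 69 and lost in the other 6 omissions, with adjusted p up to 0.0959. Over averaged neighbours it was 0.163. Among bipolar cell markers, Otx2 at 0.49 ± 0.21 (adjusted p = 0.0129) and Trpm1 at 0.42 ± 0.16 (adjusted p = 0.0137) were called on the same side, 2 of 10 measured. Of all genes, 0.568% were called on that side. Pcp2 at -0.37 ± 0.30 (adjusted p = 0.106) was negative on 8 of 8 arrays, Gng13 lay at -0.18 ± 0.22 (adjusted p = 0.411), and the list's median was 0.043. The mean of the 10 markers ran from -0.054 to 0.22 over the arrays. The part of bipolar cell RNA in the value of Cdh9 was not tested.

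Of the 9 type II members, 6 had a negative mean, and their median was -0.11. Cdh6, which in mouse marks ganglion cells that respond to direction of motion, ran from -0.73 to 0.64 with a median of -0.17, with a mean of -0.19 ± 0.44 (adjusted p = 0.681). Array 39 alone was far above 0, at 0.64. Cdh10 lay at -0.15 ± 0.27 (adjusted p = 0.599), Cdh8 at -0.11 ± 0.19 (adjusted p = 0.675) and Cdh22 at -0.19 ± 0.23 (adjusted p = 0.38). None of these passed, and each had values on both sides of 0. Turned, Cdh6 lay at 0.26 ± 0.40, Cdh10 at -0.11 ± 0.29, Cdh8 at 0.014 ± 0.22 and Cdh22 at 0.086 ± 0.29, again without a call. Cdh5, the cadherin of vessel walls, lay at -0.016 ± 0.14 and had one of the 5 smallest spreads of the superfamily.

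Cdh11 and Cdh19 were level as deposited and called when 4 arrays were turned. Cdh11, first known from bone-forming cells, had a mean of 0.012 ± 0.30 and a turned mean of -0.21 ± 0.19 (limma adjusted p = 0.0442). The call was kept without array 40 or 41 and lost in the other 6 omissions of 1 array, with adjusted p up to 0.107. Its 4 probes did not go together, with turned means from -0.47 to 0.15. Cdh19, a cadherin of the glia that wrap peripheral nerves, had ratios of 0.54, -0.057, 0.20, -0.28, 0.20, -0.26, 0.41 and -0.033. It was positive on arrays 39, 41, 43 and 70 and negative on the other 4, with no overlap, and its turned mean was 0.25 ± 0.17 (adjusted p = 0.0169).

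Among the 4 type I classical cadherins none was called in either version. Cdh2, N-cadherin, is the main classical cadherin of neurons. Its ratios were -0.53, -1.05, 0.050, -0.68, -0.0074, -0.71, 0.14 and -0.83, with a mean of -0.45 ± 0.45 (adjusted p = 0.162). Arrays 40, 42, 69 and 71 all lay below the other 4, at a mean of -0.82 against -0.089. When the set was added to the model as a term, both the mean (limma adjusted p = 0.0129) and the difference between sets (adjusted p = 0.00891) passed. The turned mean was 0.37 ± 0.54 (adjusted p = 0.13). Of its 11 probes, 10 hold the same value on every array, so they are 1 measurement listed 10 times. Counted once, Cdh2 had a mean of -0.27 (adjusted p = 0.235), since the other probe lay at -0.055.

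Cdh1, the epithelial E-cadherin, had ratios from -0.73 to 0.27 with a median of -0.050 and a mean of -0.14 ± 0.30 (adjusted p = 0.69). Cdh3, P-cadherin, known in the retina from the pigment epithelium, had the widest spread of all members, with a mean of -0.036 ± 0.79. It stood at -1.53 on array 39 and 1.40 on array 40, and between -0.23 and 0.20 on the other 6. These extremes came from 1 of its 2 probes, which read -3.06 and 2.69 there, while the other read 0.013 and 0.096. Cdh15, the muscle cadherin, lay at 0.021 ± 0.21. Turned means of the 4 genes ran from -0.38 to 0.37.

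Besides Cdh13, the atypical cadherins Cdh16, Cdh17 and Cdh26 were flat as deposited and called when turned. Cdh16 and Cdh17 are best known from kidney and gut epithelium. Cdh17 had ratios of 0.85, -0.25, 0.25, -0.59, 0.50, -0.32, 0.31 and -0.16 and a turned mean of 0.40 ± 0.23 (limma adjusted p = 0.00486). The sets of arrays did not overlap, but 1 probe carried this, with a turned mean of 0.76 against 0.046 for the other. Cdh26 had ratios of -0.41, 0.028, -0.30, 0.095, -0.20, 0.20, -0.23 and 0.35, below 0 on arrays 39, 41, 43 and 70 and above 0 on the rest. Its turned mean was -0.23 ± 0.13 (adjusted p = 0.0118). Cdh16 lay at -0.24 ± 0.23 turned (adjusted p = 0.0493), a call kept without array 39 and lost in the other 7 omissions, with adjusted p up to 0.114. Cdh23, a part of the tip links of hair cells, had the smallest spread, with ratios from -0.068 to 0.25 with a median of 0.083 and a mean of 0.060 ± 0.11. No channel intensities were used here, so whether transcripts of these genes stood above background cannot be told from a ratio near 0.

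**Figure D2:**
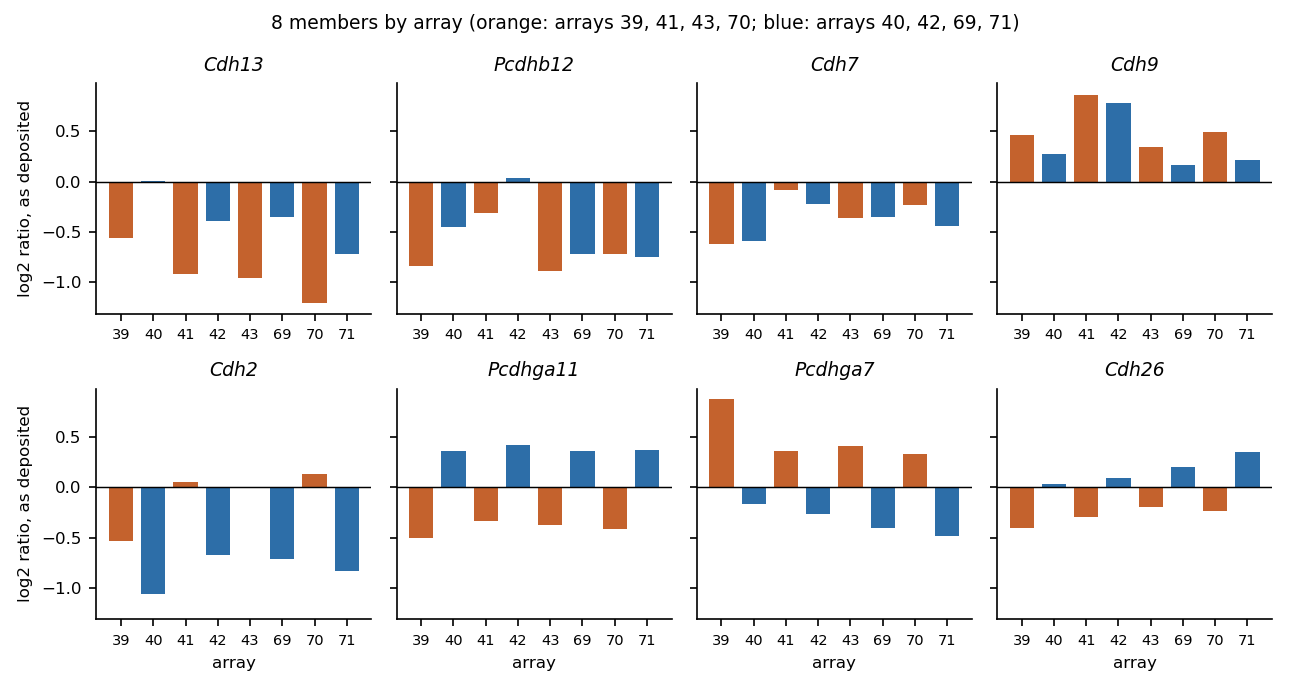
Log2 ratio as deposited of 8 members on each array; bars start at 0, orange for arrays 39, 41, 43 and 70 and blue for arrays 40, 42, 69 and 71. In the upper row Cdh13, Pcdhb12 and Cdh7 lie below 0 and Cdh9 above 0 on nearly all arrays, while in the lower row Pcdhga11, Pcdhga7 and Cdh26 change sign from one set of arrays to the other.

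The 15 clustered protocadherins split into 3 alpha, 4 beta and 8 gamma members. All 3 alpha and all 4 beta means were negative, with medians of -0.21 and -0.21, and 1 of these 7, Pcdhb12, was called. The 8 gamma means were split evenly, from -0.099 to 0.082, and none was called as deposited. Alpha members share their last exons, and so do gamma members. Whether a probe lies in a first exon of 1 member or in shared exons was not tested, so values of alpha and gamma members are uncertain as to the member.

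Pcdhac2, which is expressed in nearly all neurons rather than by choice, had a mean of -0.57 ± 0.54, similar in size to that of Pcdhb12 but not called (adjusted p = 0.131). Its ratios were 0.17, -0.72, 0.030, -0.55, -0.37, -1.04, -0.59 and -1.50, all negative on arrays 40, 42, 69 and 71. One of its 2 probes passed alone (mean -0.75, limma adjusted p = 0.0328 among single probes) and the other did not (-0.39, adjusted p = 0.489). Pcdhb20 had a mean of -0.31 ± 0.29 (adjusted p = 0.177) and was negative on 7 of 8 arrays. Pcdhb9 and Pcdhb4 lay at -0.10 ± 0.43 and -0.032 ± 0.26. Pcdhb4, whose window above has the same letters as that of Pcdhb12, was not called (adjusted p = 0.964). A difference between these 2 genes was not tested.

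Of the 8 gamma members, 3 were called when 4 arrays were turned, as were 28.1% of all genes. Pcdhga11 had ratios of -0.50, 0.36, -0.34, 0.42, -0.37, 0.36, -0.41 and 0.37, which gave a mean of -0.015 ± 0.42 as deposited. The turned mean was -0.39 ± 0.053, or 1.31-fold, with the smallest adjusted p of the superfamily (limma, 0.000375). Pcdhga7 went the other way, with ratios of 0.88, -0.17, 0.36, -0.27, 0.41, -0.40, 0.33 and -0.49 and a turned mean of 0.41 ± 0.21 (adjusted p = 0.00327). Every array that was above 0 for one of these 2 genes was below 0 for the other. Pcdhga5 followed Pcdhga11, at -0.31 ± 0.16 turned (adjusted p = 0.00485), with 1 of its 2 probes called alone. Pcdha2 lay at -0.42 ± 0.43 (adjusted p = 0.0433), negative when turned on 5 of 8 arrays. This call was kept without array 41, 69 or 71 and lost in the other 5 omissions, with adjusted p up to 0.102. Of the 15 clustered members 4 were called when turned, 3 on the negative side, against 28.1% of all genes, with 14.5% on the negative side. Pcdhga2, Pcdhga9, Pcdhgb7, Pcdhgb8, Pcdhgc3 and Pcdha4 were called in neither version, with means as deposited from -0.099 to 0.066.

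**Figure D3:**
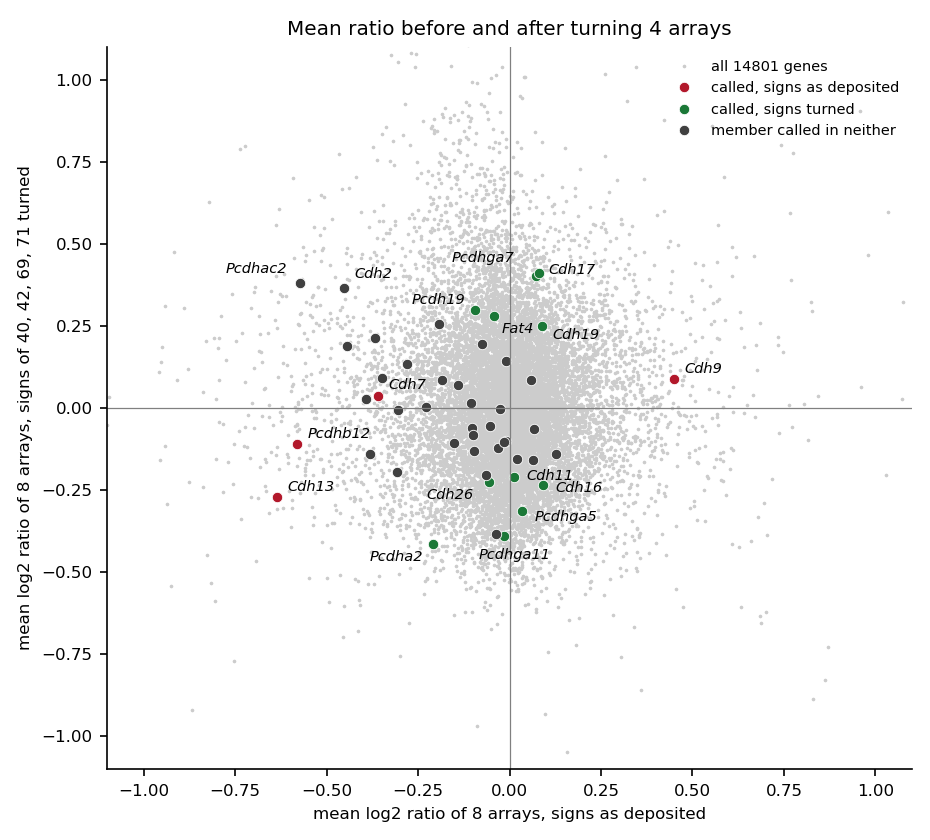
Mean log2 ratio of 8 arrays with signs as deposited (horizontal) against the mean with the signs of arrays 40, 42, 69 and 71 turned (vertical), for 14801 genes in grey and 48 members in colour; 22 genes lie outside the axes. Red points, called as deposited, lie farther from 0 horizontally than vertically, such as Cdh13 at -0.64, and green points, called when turned, farther vertically, such as Pcdhga7 at 0.41.

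Non-clustered protocadherins had negative means in 8 of 9 genes, with a median of -0.28 against -0.0057 over all genes. None was called, while 6 had an unadjusted p under 0.05 against 1936 of 14801 genes. Pcdh17 had ratios of -0.076, -0.033, -0.58, -0.67, -0.33, -0.13, -0.27 and -0.35 and was negative on 8 of 8 arrays, with a mean of -0.31 ± 0.23 (limma adjusted p = 0.108). It belongs to the delta protocadherins, which bind to their own kind and recruit actin regulators. Pcdh9, another, lay at -0.28 ± 0.20 (adjusted p = 0.105) and was negative on 7 of 8 arrays. Its 4 probes had means from -0.39 to -0.036.

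The lowest mean of this subfamily was that of Pcdh18, at -0.44 ± 0.46 (adjusted p = 0.182), with ratios from -1.08 to 0.23 with a median of -0.45. Pcdh7 followed at -0.37 ± 0.40 (adjusted p = 0.219), with array 39 above 0 at 0.33. Pcdh8, whose transcript rises with activity in hippocampal neurons of the rat, lay at -0.35 ± 0.30 (adjusted p = 0.134). Pcdh11x had 2 probes that parted, at -0.52 and 0.060, and a mean of -0.23 ± 0.26 (adjusted p = 0.307). Pcdh20 lay at -0.054 ± 0.26. Pcdh12, a protocadherin of vessel walls, was alone on the positive side at 0.13 ± 0.16 (adjusted p = 0.526). Turned means of the 9 genes ran from -0.14 to 0.30, the highest that of Pcdh19.

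Pcdh19, the gene of an X-linked epilepsy in humans, was called when 4 arrays were turned. Its ratios were 0.36, -0.16, 0.099, -0.50, 0.32, -0.30, 0.040 and -0.62, with a turned mean of 0.30 ± 0.20 (limma adjusted p = 0.0118) against -0.096 ± 0.36 as deposited. The call came from 1 of its 2 probes. A probe named through a GenBank record outside RefSeq had a turned mean of 0.76, and the probe of its RefSeq transcript one of -0.16.

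The 5 measured members of the Fat and Dachsous families all had negative means, and none was called as deposited. Fat3, which in mouse keeps amacrine cells from growing a second dendritic tree, had ratios of 0.087, -0.010, -0.54, -0.64, -0.37, -0.43, -0.63 and -0.60. Its mean was -0.39 ± 0.28 (limma adjusted p = 0.0762), negative on 7 of 8 arrays and near 0 on arrays 39 and 40. Dchs1 and Fat4 form a receptor pair across cell borders. Dchs1 lay at -0.38 ± 0.44 (adjusted p = 0.235), with arrays 39, 40 and 69 just above 0 and array 41 at -1.12. Fat4 was level as deposited, at -0.044 ± 0.32, and called when turned, at 0.28 ± 0.11 (adjusted p = 0.0032).

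The 2 probes of Fat4 were both called when turned, on opposite sides. That of a GenBank record outside RefSeq lay at 0.76 (limma adjusted p = 0.000653 among single probes) and that of its RefSeq transcript at -0.20 (adjusted p = 0.0208). The mean of Fat4 therefore describes neither. Fat1 lay at -0.025 ± 0.16 and Fat2 at -0.096 ± 0.24. Celsr3, needed for axon tracts of the brain and the only member of its family measured here, lay at -0.011 ± 0.21 (adjusted p = 0.985) with values on both sides of 0. Turned, Fat3 lay at 0.028 ± 0.50, Dchs1 at -0.14 ± 0.58, Fat1 at -0.0027 ± 0.16, Fat2 at -0.13 ± 0.22 and Celsr3 at -0.10 ± 0.18, none called.

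Across the superfamily, 27 members rested on 1 probe and 21 on several. The probes of a gene differed by a median of 0.20 and by up to 0.58 in their means as deposited, and in 7 of the 21 genes they lay on both sides of 0. Turned, they lay on both sides in 10 of 21. The spread over arrays was similar to that of other genes, with a median SD of 0.29 against 0.28 over all genes. The same sign on all 8 arrays was seen for 3 members (6.25%), Cdh7, Pcdh17 and Cdh9, against 4.41% of all genes. Sets of arrays that did not overlap were seen for 15 members (31.2%), against 34.9% of all genes. On the difference between sets in a model with both terms, 15 members passed (31.2%) against 33.6%. These were the 11 called when turned and Cdh13, Cdh2, Pcdhac2 and Pcdh12.

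**Figure D4:**
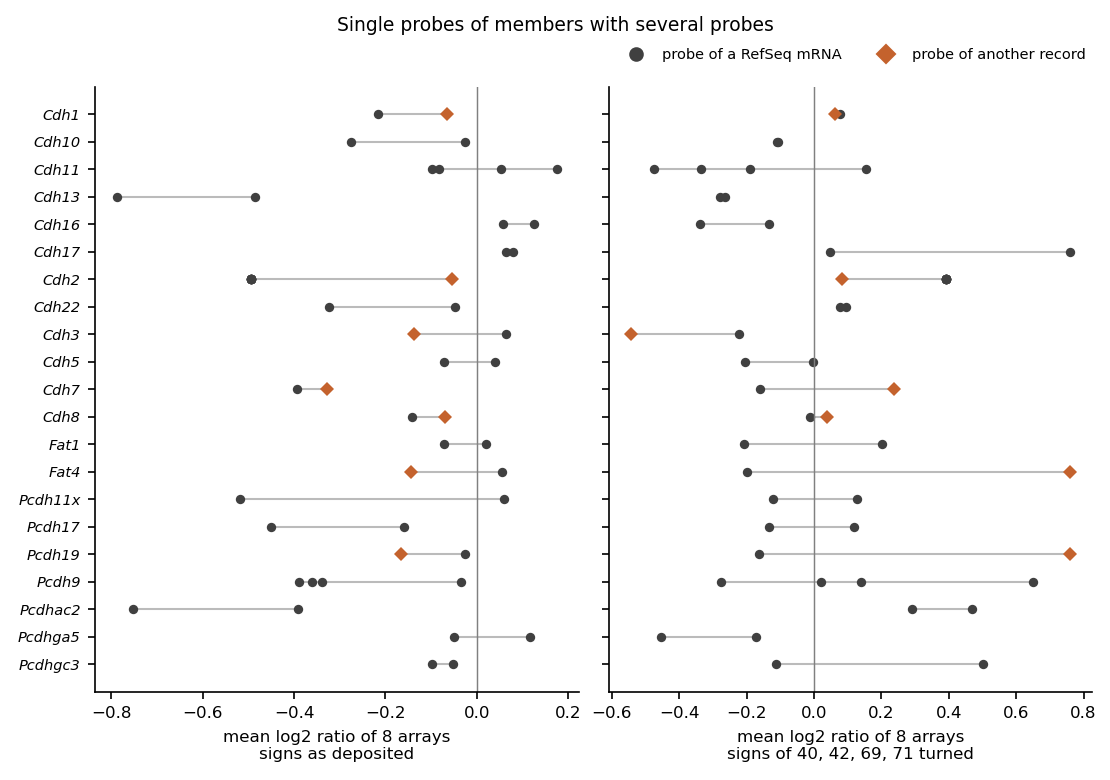
Mean log2 ratio of 8 arrays for every probe of the 21 members with several probes, with signs as deposited on the left and with 4 arrays turned on the right; circles are probes named through a RefSeq transcript, diamonds through another GenBank record, and grey lines join the probes of a gene. The probes of Fat4, Pcdh19 and Cdh17 lie close together on the left and far apart on the right, where one of each stands at 0.76.

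Of 80 listed genes for proteins that work with cadherins or are related to them, 68 were measured. With signs as deposited 4 of them (5.88%, 2 on each side) were called, against 2.19% of all genes, with a median of -0.02 against -0.0057 over all genes. Turned, 20 were called (29.4%, 11 of them on the positive side), against 28.1% of all genes, and the median was 0.065. Catenins, which link classical cadherins to actin, were all uncalled as deposited. Ctnnb1, beta-catenin, lay at 0.14 ± 0.18 (adjusted p = 0.507). Jup, plakoglobin, lay at -0.33 ± 0.31 (adjusted p = 0.16) and was negative on 7 of 8 arrays. Of the 16 measured catenins and adaptors only Pkp2, a plakophilin of desmosomes, was called, at 0.37 ± 0.17 (limma adjusted p = 0.0283) and positive on 8 of 8 arrays.

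Ctnna2, the alpha-catenin of neurons, had the widest contrast between the sets of arrays among these genes. Its ratios were 0.74, -1.20, 0.75, -1.59, 0.73, -0.44, 0.85 and -0.71, and its turned mean was 0.88 ± 0.36 (limma adjusted p = 0.000798), or -0.11 ± 0.99 as deposited. Ctnnd1 and Ctnnd2, which bind the cadherin tail near the membrane, were called on the same side when turned (0.26 ± 0.12 and 0.24 ± 0.22). So were Afdn (0.28 ± 0.18) and Nectin1 (0.17 ± 0.096), of the nectin junctions beside cadherins. Ctnna1, the alpha-catenin of epithelia, was called on the opposite side (-0.16 ± 0.12), and so was Pkp1 (-0.29 ± 0.12). In all, 7 of the 16 genes of this list were called when turned, against 28.1% of all genes.

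Among 12 measured genes of shedding and proteolysis, Psen2 was called at -0.68 ± 0.23 (limma adjusted p = 0.00691). It is a catalytic subunit of gamma-secretase, which cuts cadherin stubs in the membrane. Its ratios were -0.29, -0.35, -0.72, -0.72, -0.84, -0.71, -0.95 and -0.83, negative on 8 of 8 arrays, and larger in size than the mean of any cadherin. Adam10, which sheds the outer part of N-cadherin, lay at 0.14 ± 0.26 (adjusted p = 0.619). Turned, Mmp9 was the only call of this list, at -0.37 ± 0.12, where 28.1% of all genes were called.

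Of 15 polarity and Fat pathway genes, Lats1, a kinase of the Hippo cascade, was called at 0.29 ± 0.11 (adjusted p = 0.0345), positive on 8 of 8 arrays. Turned, Prickle3 (-0.39 ± 0.15) and Dvl3 (-0.34 ± 0.15) were called on the negative and Fjx1 (0.25 ± 0.25) and Lats2 (0.23 ± 0.17) on the positive side. Of 16 genes of protocadherin signalling and promoter choice, Smc1a, a cohesin subunit, was called at -0.32 ± 0.14 (adjusted p = 0.0345), negative on 8 of 8 arrays. Cohesin holds the loops that join protocadherin promoters to their enhancers. Turned, Smc3 (0.56 ± 0.39), Nckap1 (0.36 ± 0.29) and Wasf1 (0.32 ± 0.12) were called on the positive and Wasf2 (-0.38 ± 0.26) and Taok2 (-0.20 ± 0.079) on the negative side. Of 9 measured desmosomal cadherins, calsyntenins and Cdhr genes none was called as deposited. Turned, Dsc3 (0.29 ± 0.19), Clstn3 (-0.29 ± 0.11) and Cdhr2 (-0.30 ± 0.10) were. In these lists the turned calls were thus 4 of 15, 5 of 16 and 3 of 9 genes, against 28.1% of all genes.

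**Figure D5:**
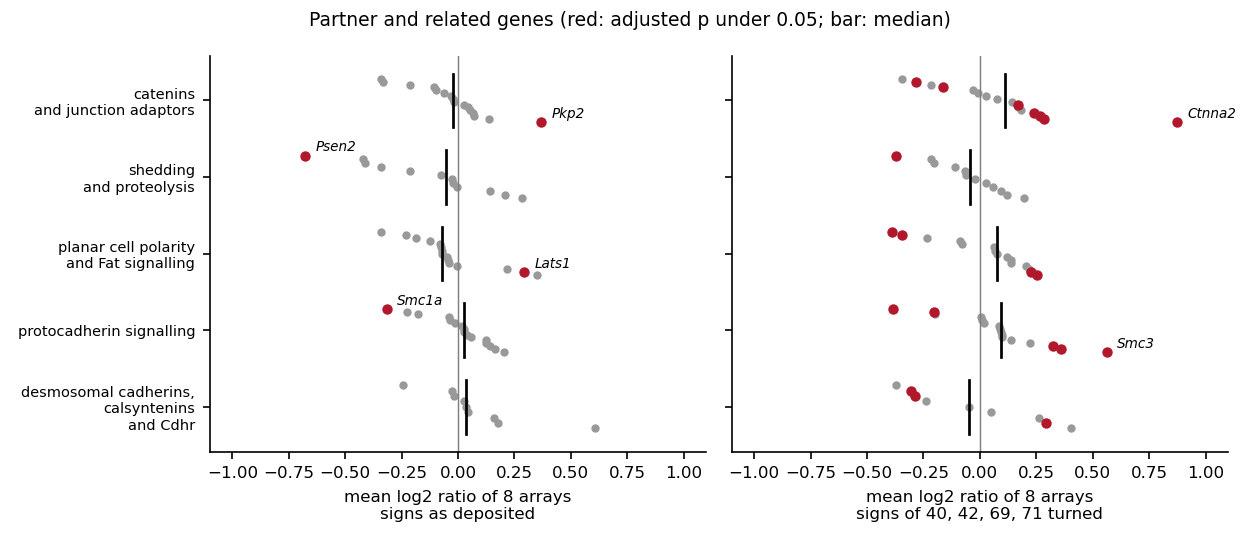
Mean log2 ratio of 8 arrays for 68 partner and related genes in 5 lists, with signs as deposited on the left and with 4 arrays turned on the right; red points passed the test over all genes and black bars are medians. As deposited only Pkp2, Lats1, Psen2 and Smc1a are red, and turned Ctnna2 at 0.88 stands farthest out.

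Marker genes of retinal cell types are set beside these values, described first with signs as deposited. Ganglion cell markers had a median of -0.14 over 20 measured of 21, with 3 called (Slc17a6, Thy1 and L1cam), all negative, and means over the list from -0.32 to -0.060 over the arrays. Rod markers had a median of 0.32 over 15 of 18, with list means from 0.080 to 0.71, and 2 called on the positive side. Cone markers had a median of 0.18 (1 of 9 called) and amacrine markers one of 0.084 (0 of 13 called). Of 17 markers of Müller glia and astrocytes 1 was called, and their median was -0.0026. Vascular and horizontal cell markers had no call, with medians of 0.00030 and -0.087 respectively. With signs turned, 9 of 20 ganglion cell markers were called, 4 on the negative and 5 on the positive side, against 28.1% of all genes. So were 4 of 15 rod, 2 of 9 cone, 2 of 10 bipolar, 5 of 13 amacrine, 3 of 17 glial and 6 of 11 vascular markers. No horizontal cell or macrophage marker was called when turned. Macrophage and microglia markers had list means of 0.99 and 0.82 on arrays 39 and 40, -0.33 on arrays 41 and 42, and 0.16 to 0.25 on the other 4. All these lists hold ratios only, so the level of a marker in either fraction was not analysed here. Means were negative for 16 of 20 ganglion cell markers, against 52.0% of all genes. They were positive for 13 of 15 rod, 7 of 9 cone, 7 of 10 bipolar, 10 of 13 amacrine and 15 of 16 macrophage markers. Other lists were mixed or negative, with negative means for 5 of 5 horizontal, 9 of 17 glial and 5 of 11 vascular markers. The macrophage list was lowest on arrays 41 and 42, where Cdh9 was highest, at 0.86 and 0.78. The part of other cell types in these ratios was not tested, nor was any link between marker lists and called cadherins.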

How the data were processed

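Per the labels' protocols, RNA of sorted large and small ganglion cells was amplified, dye-coupled and hybridised to 2-colour Agilent arrays. The authors' deposited value table holds a log2 ratio for 41048 probes on 8 arrays. How the scans were read, corrected and normalized is not given in the sources used here. The unit was read from the values: of 88 distances between common values, 67 matched a log2 of a ratio of whole numbers up to 12 within 0.0011, while 20 matched log10 and 2 a natural log, some more than 1 scale. Array medians lay between -0.083 and 0.033. Scale was thus inferred, and the ratio's direction remains unknown. The number of arrays limits the precision.

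Values above 15 in size (73) or exactly 0 (574) were set to missing. Probes were named through the platform's probe table, in which 23374 had 1 symbol, 48 several and 17626 none. A gene is the mean of its probes. The 14801 genes with values on at least 6 arrays were fitted with an intercept model in limma 3.58.1 (R 4.3.3), 2-sided, with Benjamini-Hochberg adjustment. Tables and plots used pandas 2.3.3 and matplotlib 3.10.9 under Python 3.11.15. On simulated data with 14665 genes the fit of the mean recovered 59% of 100 genes changed by 0.5 and 88% of 100 changed by 1, with 3 false calls. For the difference between sets the shares were 77% and 97%, with 6 false calls. Simulated arrays were independent of each other, while the labels state technical subreplicates for the real ones. The counts of false calls therefore may not hold for the real arrays.

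Promoter sequences are RefSeq's (GRCr8), matched by symbol for 34 of 48 members. Alternatives covered missing values, centring, scaling, probe summary, single probes, set of arrays, averaged neighbours, turned signs and omitted arrays. Members, lists, sets of arrays and alternatives were chosen with earlier results of these data known. Named genes are every called member, members called on the difference between sets, called partners, the 3 largest means in size of each subfamily, the 5 widest and 5 narrowest spreads, and a list of members always named. Of that list, Cdh4, Pcdh10, Pcdh15, Celsr1 and Celsr2 were not analysed here. Other members are named to account for all 48.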

Additional observations from a re-analysis of the deposited data

Results flagged for a closer look

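In 6 of 96 sets of 8 values (48 members, as deposited and turned), 1 array lay farther from its nearest neighbour than Dixon's limit of 0.526 of the range allows, and chance gives about 5%. As deposited, Pcdhga9 stood at 0.33 on array 42, with the next highest array at -0.043. Pcdhgc3 stood at -0.72 on array 40, with the next lowest at -0.21. With 4 arrays turned, Pcdhgc3 stood at 0.72 on array 40, where the next highest was 0.23. Turned, Pcdh20 also stood out on array 40, at 0.49 above a next value of 0.041. On array 39, Cdh16 stood at 0.28 with the next highest at -0.15, and Pcdhga7 at 0.88 above 0.49. Of the 6 values, 5 were on arrays 39 and 40, and the value of Pcdhgc3 on array 40 is counted in both versions. These arrays had the highest macrophage marker ratios and also the widest spreads over all probes. Their SD was 0.56 and 0.55, against 0.36 to 0.52 on the others, and the cause was not tested.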

How the results depend on the processing

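The count of 4 called cadherins was 4 with all values kept, median centring, scaled arrays, probe medians and identical probes counted once, but 0 to 3 without single arrays. Leaving out array 43, 70 or 71 gave 0 (limma, 1657, 1667 and 1830 of all genes at an unadjusted p under 0.05), array 42 or 69 gave 1, array 39 or 41 gave 2, and array 40 gave 3. The count rose to 9 once a term for the array set was fitted, was 0 with neighbouring title numbers averaged and was 11 with 4 arrays turned. The 5 members added by the covariate were Cdh2, Pcdhac2, Fat3, Pcdh9 and Pcdhb20. Over the averages Cdh13 had a limma adjusted p of 0.101, Pcdhb12 0.129, Cdh9 0.163 and Cdh7 0.166. Cdh7 changed sign when 4 arrays were turned, to 0.038. Without arrays 39 and 40 the count was 3 (392 of 14801 genes), of which Cdh13 is shared with the 4. Of all genes 324 were called, and 496 of single probes, 928 with the covariate, 0 with averaged neighbours (limma, 1928 at an unadjusted p under 0.05), 4161 turned and 134 to 330 without single arrays. Partner genes called were 4, then 20 turned, 10 with the covariate, 1 without arrays 39 and 40, and 1 to 3 without single arrays. The 11 called when turned became 24 of 48 over averaged neighbours, where 49.1% of all genes were called, and 8 to 11 without single arrays. The 15 on the difference between sets became 9 without array 43, with 3758 of 14801 genes called, and up to 18 without array 40, with 5005. The cause of these moves was not tested. Fewer arrays enter the fits with omissions and averages. Each averaged pair holds an array of both sets, so averaging after the turn removes any offset that its arrays share. No paired analysis was possible because the 8 arrays form 1 group, with no other group to pair; possible technical pairs, which the labels do not give, were averaged as neighbours instead.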

Other observations

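The probes of 24 genes, 240 in all, repeat 1 value on every array within their gene, 10 of them the probes of Cdh2. The 3 probes of different members, 1 each of Fat4, Pcdh19 and Cdh17, had turned means of 0.76 each, larger than the turned mean of any of the 48 members. Those of Fat4 and Pcdh19 are named through GenBank records outside RefSeq.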
